A study of Ovis aries with 20 samples.

Results

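The ileum, the last stretch of the small intestine, was compared with the jejunum, its middle stretch, in normally fed pregnant Hu sheep at 115 days of gestation, labelled as wild type. The comparison used 10 of the 20 RNA sequencing libraries of the series, the 5 ileal and the 5 jejunal ones whose titles and feeding label mark normal feeding. The other 10 libraries came from the same segments of ewes under restricted feeding, also at 115 days of gestation, and were used only where they are named. Among them the ileal and the jejunal library numbered 2 stood apart from the rest of their segments, so results of the restricted libraries are given with and without both. A general treatment note names restricted feeding for the normally fed samples too, so the feeding label of each sample was used instead. Neither the number of ewes nor whether a ewe gave both segments is stated, and a p-value here covers the spread between the samples alone, which may be technical. Each piece of bulk tissue mixes many cell types, and fewer cells of a type and less RNA per cell cannot be told apart.

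The jejunum takes up sugars, amino acids, peptides and fats released by digestion in the small intestine. The ileum recovers bile acids with the apical transporter SLC10A2 and the carrier FABP6, takes up vitamin B12 bound to intrinsic factor through the cubilin receptor, and carries the larger Peyer's patches. In young sheep a long ileal Peyer's patch is a site of B cell formation that regresses with age. None of these genes can be looked up here. The values are given by IDs made of the word gene and a number, the files do not pair them with symbols, and 0 of the 18426 IDs matched the RefSeq gene table for sheep. The labels of the tissues could therefore not be checked against segment or cell type markers. Genes are described below by their level and pattern, and 2 IDs are printed for each direction.

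Expression was given as FPKM, a fragment number scaled to the length of the transcript and the size of the library, so that levels of different genes can be set side by side. Of 17683 IDs listed in both segments, the 12844 at 1 FPKM or more in at least 5 of the 10 libraries were compared on log2(FPKM + 1), a scale that understates the change of low genes. Depth relative to jejunal library 1 was 0.931 to 1.27 in the jejunum and 0.901 to 0.955 in the ileum, and total read numbers are unknown. The number of genes at 1 FPKM or more was 12822 ± 138 in the ileum and 12661 ± 146 in the jejunum (mean ± SD, n = 5 each), a difference that did not pass (p = 0.127 by an exact two-sided permutation test, 0.127 when adjusted for the 2 measures tested). The top 10 genes of each library together took 9.46% ± 0.386 of its summed FPKM in the ileum and 11.3% ± 1.403 in the jejunum (SD, n = 5 each). Each ileal library lay below all 5 jejunal ones in this share (exact two-sided permutation test, p = 0.00794, adjusted p = 0.0159, with 0.00794 the smallest p that 5 against 5 allows). For the 50 most abundant genes the difference did not pass (exact permutation test, p = 0.0714).

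Of the genes tested 828 passed (6.45%, limma, adjusted p under 0.05). The ileum had the higher level for 552 (4.3%) and the jejunum for 276 (2.15%). The groups did not overlap for 488 of the 552 and 252 of the 276, where 1133 of all genes tested did not overlap (8.82%), 784 toward the ileum (6.1%) and 349 toward the jejunum (2.72%). Both sets held few large and many small differences, in unequal proportion. Of the genes higher in the ileum 25.7% differed at least 2-fold and 2.9% at least 8-fold, while of those higher in the jejunum 47.8% and 8.7% did. In numbers, 142 ileal and 132 jejunal genes differed at least 2-fold, and 16 and 24 at least 8-fold. The excess of ileal calls depended on the scaling: quantile normalization gave 400 ileal and 377 jejunal calls, with 115 and 145 at 2-fold or more. Over all genes tested, 65.5% had a log2 difference above 0, with a median of 0.08.

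The share of genes that passed was larger among abundant genes. Among 1759 genes whose higher segment mean lay between 1 and 3 FPKM, 2.56% passed toward the ileum and 0.682% toward the jejunum. Between 10 and 30 FPKM, in 4279 genes, the shares were 4.53% and 2.22%. Among 157 genes between 300 and 1000 FPKM they were 9.55% and 6.37%. Above that, at 1000 FPKM or more, 2 of 65 genes passed toward the ileum and 7 toward the jejunum, 6 of these 7 at least 4-fold. The added 1 FPKM shrinks differences in the low classes, and its part in these shares was not tested.

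**Figure D1:**
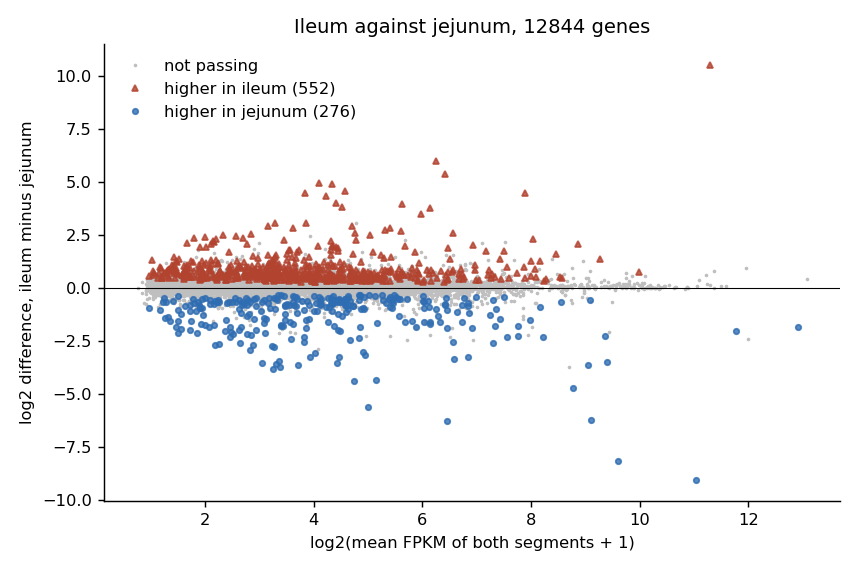
Each point is 1 of the 12844 genes tested, with the log2 of its mean FPKM over both segments plus 1 on the horizontal axis and the log2 difference, ileum minus jejunum, on the vertical axis. Triangles mark the 552 ileal and circles the 276 jejunal calls, and most of both lie within a 4-fold difference, which 43 and 54 genes reached.

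The ileal genes with the largest differences were close to silent in the jejunum and varied widely within the ileum. The first, gene10088, stood at 0.347, 0.75, 1.6, 4.28 and 3.24 FPKM in jejunal libraries 1 to 5 and at 1712, 7044, 1734, 9426 and 4979 FPKM in the ileal ones. No other gene higher in the ileum reached this level there. Its log2 difference was 10.53 ± 0.55 (SE, limma, adjusted p = 6.66e-06). The second, gene26739, was listed at 0.115, 0, 0.148, 0 and 0.136 FPKM in the jejunum and at 18.1, 290.0, 12.4, 375 and 55.5 FPKM in the ileum. All 5 ileal libraries thus lay far above the jejunal ones, but ileal libraries 1 and 3 stood at the low end and 2 and 4 at the high end. Its log2 difference was 6.0 ± 0.85 (SE, limma, adjusted p = 0.0025).

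High values in ileal libraries 2 and 4 recurred in most of the next genes, and the lowest was library 1 or 3 in all but the sixth. The third gene stood at 8.0, 253, 4.56, 544 and 28.7 FPKM in the ileum and at no more than 0.206 FPKM in a jejunal library, a log2 difference of 5.38 ± 1.12 (SE, limma, adjusted p = 0.0181). The fourth gene was steadier, at 18.9, 38.9, 18.8, 48.7 and 35.7 FPKM in the ileum, and was listed at 0 in all 5 jejunal libraries (limma, adjusted p = 6.66e-06). The sixth was the most even of the 10 within the ileum, at 42.6, 55.6, 41.3, 47.4 and 33.7 FPKM in the ileum, and its jejunal values were 0.0495, 0, 5.33, 2.32 and 0.117 FPKM. Its traces in the jejunum were highest in libraries 3 and 4. The eighth was the one of the 10 above 5 FPKM in each jejunal library, at 5.14 to 24.0 FPKM against 164, 718, 118, 1146 and 130.4 FPKM in the ileum. The ninth had another library on top: it was listed at 0 in all 5 jejunal libraries and at 1.35, 31.2, 11.7, 39.0 and 93.7 FPKM in the ileum, with library 5 the highest. In 9 of these 10 genes ileal libraries 2 and 4 were the 2 highest.

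The jejunal genes with the largest differences included some of the most abundant transcripts of that segment. The first, gene5654, stood at 7176, 5706, 2013, 3009 and 2903 FPKM in jejunal libraries 1 to 5 and at 103, 0.241, 13.01, 1.93 and 1.93 FPKM in the ileal ones. Ileal library 1 thus kept a level that libraries 2, 4 and 5 did not approach, while the groups did not overlap. Its log2 difference was -9.08 ± 1.02 (SE, limma, adjusted p = 0.000729). The second, gene27271, stood at 4101, 1839, 530.4, 656 and 635 FPKM in the jejunum and at 3.3, 9.79, 3.69, 0.82 and 0.981 FPKM in the ileum, a log2 difference of -8.19 ± 0.64 (SE, limma, adjusted p = 7.79e-05). Jejunal library 1 was the highest and ileal library 4 the lowest.

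Further down the jejunal ranks the level rose and fell from gene to gene. That the groups did not overlap was a condition for choosing these genes. The third gene stood at 176, 326, 125, 117 and 113 FPKM in the jejunum and at 4.404, 0.80, 2.33, 0 and 0 FPKM in the ileum. The fourth was the most uneven, at 3733, 803, 358, 393 and 134 FPKM in the jejunum against 0.795 to 18.1 FPKM in the ileum (limma, adjusted p = 0.00268). It was the one gene among the 20 largest differences that did not pass in a single fit of all 20 libraries (limma, adjusted p = 0.0803). The fifth stood at 95.2, 108, 14.3, 60.2 and 32.9 FPKM in the jejunum and was listed at 0 in 4 ileal libraries and at 0.0982 FPKM in library 4. The sixth had the highest mean ileal level of the 10, at 70.8, 56.2, 63.4, 13.4 and 5.46 FPKM against 582 to 1324 FPKM in the jejunum. The seventh to the tenth had log2 differences between -4.42 and -3.73 and stood at 9.36 FPKM or more in each jejunal library. In 8 of these 10 genes jejunal libraries 1 and 2 were the 2 highest.

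**Figure D2:**
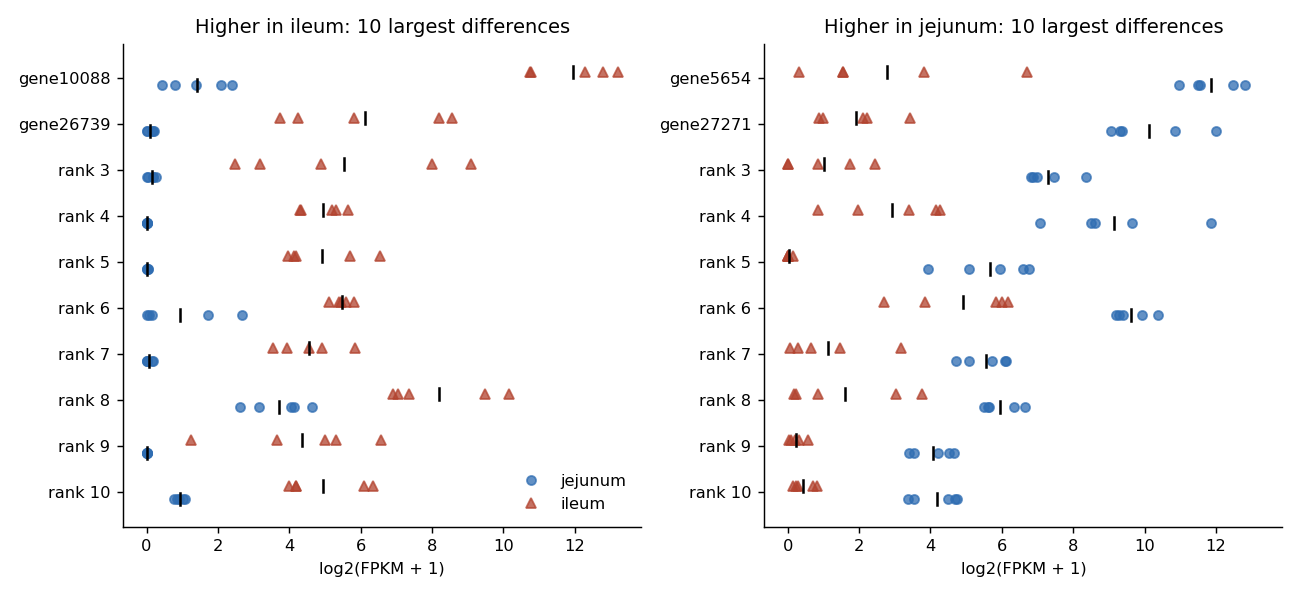
Each point is 1 library's log2(FPKM + 1) for the 10 genes with the largest log2 differences in each direction, among passing genes without overlap between the groups, with jejunal libraries as circles, ileal ones as triangles and the group means as bars. The first gene of each panel spans the widest gap, a log2 difference of 10.53 on the left and -9.08 on the right, and the ileal points of ranks 2 and 3 on the left spread more widely than those of ranks 4 and 6.

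Among the most abundant genes the segments differed less by kind than by degree. Of the 10 genes with the highest mean in each segment 7 were shared, as were 42 of 50 and 89 of 100. Of the 10 most abundant genes 2 in the ileum and 3 in the jejunum passed, beside 6.45% of all genes tested. The most abundant gene that passed, and the most abundant of those higher in the jejunum, stood at 9829.9 to 14429 FPKM there and at 1779.9 to 5527 FPKM in the ileum, a log2 difference of -1.84 ± 0.33 (SE, limma, adjusted p = 0.00885). Its ileal values were lowest in libraries 2 and 4. The next stood at 4622 to 6362 FPKM in the jejunum and 486 to 2917 FPKM in the ileum (limma, adjusted p = 0.022), again lowest in ileal libraries 2 and 4. This second gene passed in 17 of 21 alternatives and was lost without jejunal library 2 or 5 or ileal library 2 or 5 (limma, highest adjusted p = 0.061). After gene10088, the most abundant gene higher in the ileum stood at 1059 to 1602 FPKM there and at 623 to 816 FPKM in the jejunum, a log2 difference of 0.75 ± 0.15 (SE, limma, adjusted p = 0.014). It did not pass after quantile normalization (limma, adjusted p = 0.0596). The fourth of this group passed with overlapping groups, at 214 to 2120 FPKM in the ileum and 98.4 to 223 FPKM in the jejunum (limma, adjusted p = 0.0444), and passed in 11 of 21 alternatives.

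A small group of 17 genes was nearly restricted to 1 segment, with a mean under 1 FPKM in one and of at least 10 FPKM in the other. All 9 ileal and all 8 jejunal members passed, beside 6.45% of all genes tested. Since their means in these same libraries chose them, passing was close to fixed, and the levels are given as a description. The median of the 9 ileal genes was 10.6, 43.7, 12.4, 56.1 and 22.6 FPKM in ileal libraries 1 to 5, and 0.127 FPKM or less in each jejunal library. Their summed level was 93.3, 832, 102, 1301 and 283 FPKM in the ileum, a spread of more than 10-fold between libraries 1 and 4. In the jejunum the sum was 1.22 to 3.94 FPKM. The median of the 8 jejunal genes was 28.7, 21.3, 9.07, 10.7 and 12.7 FPKM in jejunal libraries 1 to 5 and 0.342, 0.0163, 0.238, 0.049 and 0.0203 FPKM in the ileal ones. The traces of jejunal genes were thus highest in ileal libraries 1 and 3, the 2 libraries with the least of the ileal genes. Single libraries mattered to membership: 23 genes met the criteria without ileal library 1 and 16 without ileal library 2 or 4.

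**Figure D3:**
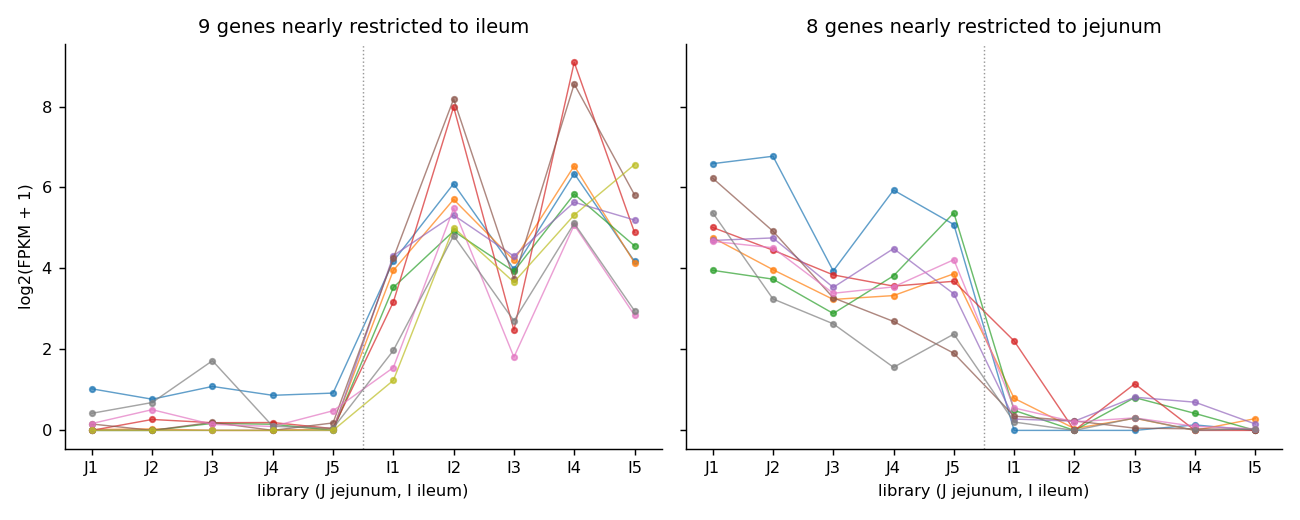
Each line joins the log2(FPKM + 1) of 1 gene over the 10 libraries, with jejunal libraries left and ileal ones right of the dotted line, and libraries within a segment have no order. The 9 ileal genes in the left panel peak mostly in ileal libraries 2 and 4, and the 8 jejunal genes in the right panel were highest mostly in jejunal libraries 1 and 2.

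Libraries of a segment were not equally far from the other segment. On an axis from the jejunal mean at 0 to the ileal mean at 1, with the library itself left out of the means, ileal libraries 1 to 5 lay at 0.614, 1.03, 0.665, 0.969 and 1.01. The jejunal libraries lay at -0.078, -0.0411, 0.255, 0.22 and 0.12. All 5 ileal libraries were thus above all 5 jejunal ones, with ileal libraries 1 and 3 and jejunal libraries 3 and 4 nearest to the other segment. The correlation of log2 values across genes had a median of 0.95 between ileal libraries, 0.974 between jejunal ones and 0.928 between segments. Ileal libraries 1 and 3 correlated with the jejunal libraries at medians of 0.956 and 0.954, close to their medians of 0.954 and 0.953 with the other ileal ones.

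The genes that passed held a limited part of the RNA. Those higher in the jejunum took 11.8%, 10.7%, 7.25%, 8.04% and 8.24% of the summed FPKM in jejunal libraries 1 to 5 and 3.39%, 1.80%, 3.40%, 1.77% and 2.17% in the ileal ones. Those higher in the ileum took 2.66% to 3.11% in the jejunum and 4.98%, 7.69%, 4.88%, 8.61% and 6.32% in the ileum. Ileal libraries 1 and 3 had the smallest share of ileal genes and the largest of jejunal genes within their segment. These genes were chosen for their difference, so that the direction of these shares is no separate result.

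**Figure D4:**
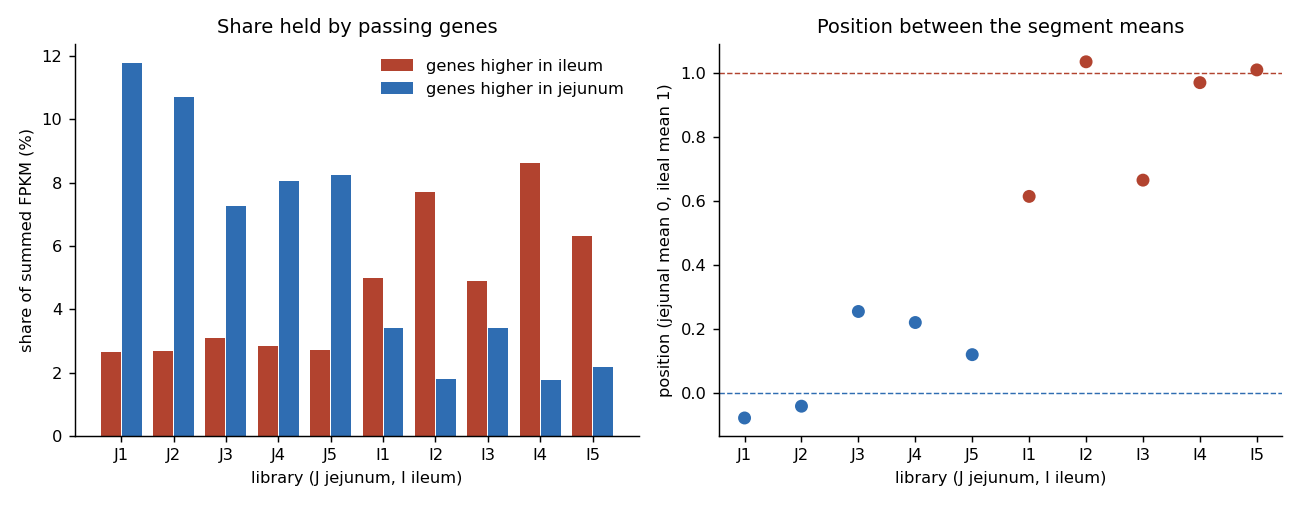
The left panel gives for each of the 10 libraries the percentage of its summed FPKM held by the genes higher in the ileum and by those higher in the jejunum, and the right panel its position between the jejunal mean (0) and the ileal mean (1). Ileal libraries 1 and 3 lie at 0.614 and 0.665, between the other 3 ileal libraries and all jejunal ones.

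The order of libraries within a segment was followed over larger sets. Ileal libraries 2 and 4 were the 2 highest of the ileum for 27 of the 43 genes at least 4-fold higher in the ileum (62.8%) and for 54 of the 142 at least 2-fold higher (38%), beside 20.8% of all genes tested. The next most frequent pairs were libraries 2 and 5, in 24 of the 142 (16.9%, beside 12.8% of all genes tested), and 3 and 5, in 23 (16.2%, beside 18%). Taken singly, ileal library 5 was most often the highest for the 142 (38%, beside 25.4% of all genes tested). Library 4 came next (33.8%, beside 21.3%), and was also most often the lowest (30.3%, beside 28.1%). For the 132 genes at least 2-fold higher in the jejunum, jejunal libraries 1 and 2 were the 2 highest in 88 (66.7%, beside 12.8% of all genes tested). In the ileum the same 132 genes were highest in libraries 1 and 3 in 63 cases (47.7%, beside 14.4%). Genes of 1 library share its tissue piece, so these counts describe the libraries and not independent events. Jejunal library 1 also held the lowest jejunal value for 43.2% of all genes tested.

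Spread within a segment was larger in the ileum. The median SD of log2(FPKM + 1) over 5 libraries was 0.228 in the ileum and 0.183 in the jejunum for all genes tested, and 65.3% of genes had the larger SD in the ileum. For the 43 genes at least 4-fold higher in the ileum it was 0.842 in the ileum and 0.395 in the jejunum. For the 54 at least 4-fold higher in the jejunum it was 1.00 in the ileum and 0.636 in the jejunum. The ileum had the larger SD in 32 of the 43 (74.4%) but in 31 of the 54 (57.4%). For the 132 genes at least 2-fold higher in the jejunum, the medians were 0.539 in the ileum and 0.517 in the jejunum. The SD was larger in the ileum for 69 of these (52.3%). The highest library of the own segment exceeded the lowest at least 10-fold in 7 of the 43 genes of the ileum and in 4 of the 54 of the jejunum, and less than 3-fold in 18 and 28. No test of these spreads was made.

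Most genes were held to a small difference by their intervals. The 95% limma interval lay within a 2-fold difference in either direction for 11400 of 12844 genes (88.8%), and within 0.5 on the log2 scale for 7207 (56.1%). Among the 6983 genes that reached a mean of 10 FPKM in a segment, where the added 1 FPKM matters little, the shares were 87.3% and 58.6%. Of the 828 genes that passed, 371 had an interval within 2-fold. For 987 of the 12016 genes that did not pass the interval reached beyond 2-fold, so that a difference of that size was not excluded for them with 5 libraries a group.

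Single libraries moved the counts. The number that passed was 443 without jejunal library 2, 535 without jejunal library 5 and 522 without ileal library 2. Leaving out any other library left 590 to 812. A core of 408 genes passed in each of the 10 fits with 1 library left out, 274 of them ileal and 134 jejunal. At 2-fold or more this core held 112 of the 142 genes toward the ileum and 89 of the 132 toward the jejunum. All 828 genes kept their sign in each of these fits. The groups of most of them did not overlap, so that leaving out 1 library could not reverse it. In a single fit of all 20 libraries, which pools the spread of both feedings, 368 passed.

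The restricted libraries, which share no library with the normally fed ones, gave a second measurement of the same genes. With all 10 of them, 0 of 12640 genes passed between the segments (0%, limma), and the unadjusted p was under 0.05 for 1397 (11.1%). The libraries numbered 2 held 2.78 FPKM (ileum) and 29.8 FPKM (jejunum) of gene10088, where the other restricted ileal libraries held 799 to 7937 FPKM and the other jejunal ones 0.204 to 8.64 FPKM. For gene5654 they held 49.6 FPKM (ileum) and 149.9 FPKM (jejunum), where the others held 1.69 to 467 FPKM in the ileum and 4484 to 10434 FPKM in the jejunum.

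Most genes kept their direction in each size class, and the same share over all genes tested is not given here. Of the ileal genes at 4-fold or more under normal feeding, 37 of 43 met the filter under restriction and all 37 were higher in the ileum, with a median log2 difference of 2.65 against 2.71 under normal feeding. All 45 of the 54 genes at least 4-fold higher in the jejunum that met the filter were higher in the jejunum, with medians of -1.87 and -2.64. A gene near silent in 1 segment could meet the filter only through the other, which largely set its direction. The filter also left out genes with large differences. Among them were the third ileal and the fifth jejunal gene by rank, at 5.55 and -4.67 under restriction. For genes that differed less than 2-fold, 387 of 397 ileal and 136 of 142 jejunal genes kept their direction. Groups did not overlap in 5 of the 37 (13.5%) and 5 of the 45 (11.1%). Of all genes tested under restriction, 1.76% and 0.578% did not overlap in the ileal and the jejunal direction. The libraries numbered 2 were set apart by their expression, including that of such genes, so that counts without them describe the other 8 libraries and are no separate support. Without them, the groups of 36 of 40 ileal genes at 4-fold or more did not overlap, beside 8.12% of all genes tested. For the jejunal genes it was 28 of 52, beside 3.16%. The median log2 differences were then 3.37 in the ileal and -2.54 in the jejunal genes, where the same genes had 2.69 and -2.72 under normal feeding.

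Among the 20 genes with the largest differences, 3 did not overlap between the restricted segments with all libraries. Of all genes tested under restriction, 1.76% did not overlap toward the ileum and 0.578% toward the jejunum. Without both libraries numbered 2, 18 of the 20 did not overlap, beside 8.12% and 3.16% of all genes tested. Leaving them out made non-overlap easier to reach, with 4 libraries against 4, so the rise to 18 is no separate support. The log2 difference of gene10088 under restriction was 7.15 ± 1.90 with all libraries (SE, limma, adjusted p = 0.21) and 9.69 ± 0.86 without number 2 (SE). That of gene5654 was -7.21 ± 1.52 (SE, limma, adjusted p = 0.149) and -8.62 ± 1.39 (SE). No p-value is given for either gene without number 2, since these libraries were set apart by the expression of such genes. For gene27271, the jejunal level under restriction was 166 to 365 FPKM in the 4 libraries other than number 2, below each of the 5 normally fed values, but the ileal level was also lower, at 0.151 FPKM or less in these libraries. Whether the segment difference itself changed with feeding was tested by the interaction over all 20 libraries. None of the 27 genes described by rank or ID passed (limma, smallest adjusted p = 0.9999), and 0 had an unadjusted p under 0.05, with or without number 2. Among the 13279 genes of this fit 0 passed (0%), and the unadjusted p was under 0.05 for 262 (limma), fewer than the 664 that chance alone would give. The lack of a call therefore does not show that the segment difference was equal under both feedings.

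**Figure D5:**
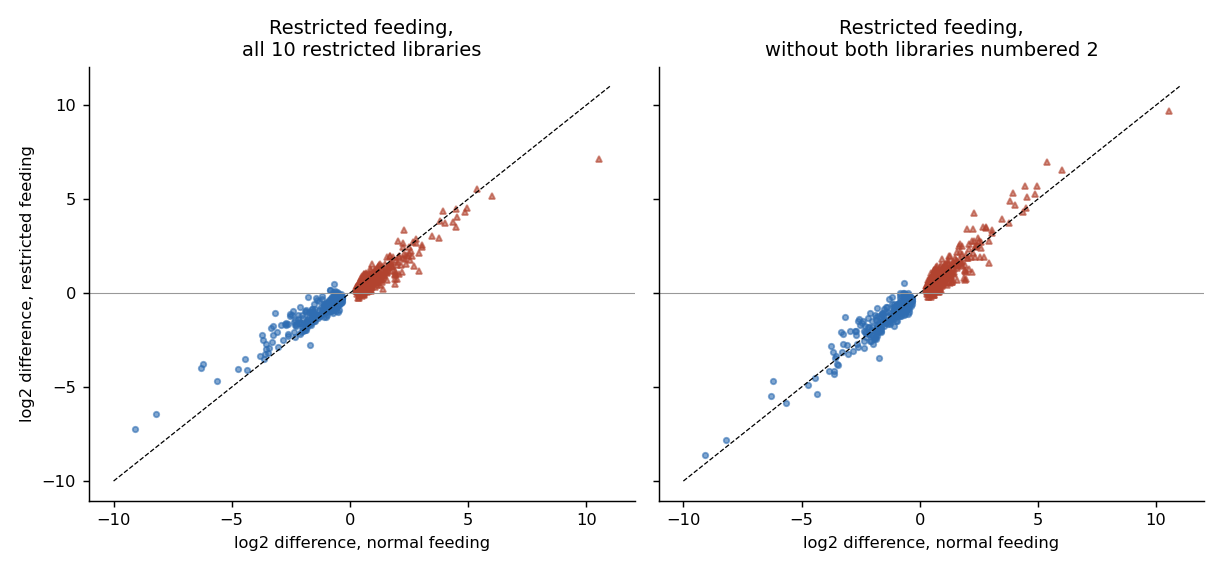
Each point is 1 of the 828 genes that passed under normal feeding, with its log2 difference, ileum minus jejunum, under normal feeding on the horizontal and under restricted feeding on the vertical axis, for all 10 restricted libraries on the left and without both libraries numbered 2 on the right. The dashed line marks equal differences: gene10088, at the far right, moves from 7.15 to 9.69 when number 2 is left out.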

How the data were processed

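Each library came as 1 deposited file listing FPKM by gene ID, per the file headers. For aligner, counting tool, genome build and annotation nothing is given in the sources used here. RNA was extracted with Trizol and libraries were made with an NEBNext Ultra kit, per the labels' protocols. Samples were grouped by title and feeding label.

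FPKM values are not counts, so log2(FPKM + 1) was tested in limma 3.58.1 (R 4.3.3), letting the variance follow the mean level, with Benjamini-Hochberg adjustment over 12844 genes and a threshold of 0.05. Without restricted number 2, the filter was 1 FPKM in 4 libraries. The scripts were tested on simulated data. Relative depth came from ratios of values below 0.08 FPKM, which fall on steps of whole fragments, with the most frequent ratio taken as equal fragment numbers. Since this gives no total, intervals or floors that need counts were not computed.

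Described by rank are, per direction, the 10 largest differences among genes that passed without overlap and the 5 most abundant genes that passed. These rules, the comparison and the size classes were chosen with earlier results of these data known. Marker and pathway lists needed symbols and could not be applied.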

Additional observations from a re-analysis of the deposited data

Results flagged for a closer look

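In 62 groups of 5 libraries (27 genes and 4 library measures, each in both segments), 1 met Dixon's criterion for a library that stands apart. Chance gives about 1 in 20 for values without ties. It was the fifth of the genes with the largest differences toward the jejunum: ileal library 4 was at 0.0982 FPKM while the other 4 ileal libraries were listed at 0. With 4 values tied at 0, any value above 0 meets the criterion, so this flag does not show that library 4 stood apart.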

How the results depend on the processing

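The number of genes that passed was 828, 552 toward the ileum and 276 toward the jejunum. In a single fit of all 20 libraries it was 368, with 254 and 114. With 1 library left out it ran from 443 to 812, 305 to 523 toward the ileum and 138 to 289 toward the jejunum, and was more than 1.5 times smaller without jejunal library 2 (443) or 5 (535) or ileal library 2 (522). Pseudocounts, filters, scalings, the trend and library weights left it between 661 and 854, and a random effect for the replicate number gave 1163. With the replicate number as a block 806 passed, 511 and 295, of which 659 were among the 828. The numbers were not treated as pairs, since that required a correlation above 0.1 for every number. Deviations of same-numbered libraries correlated at -0.000602 to 0.501, 4 of 5 above 0.1, and those of other numbers at -0.505 to 0.421. Jejunal libraries 1 and 4 correlated better with another number than with their own. Whether same-numbered libraries share a ewe thus remains unknown. Of 565 refits of single genes 549 still passed, 16 did not and 0 changed sign. The groups of most of these genes did not overlap, which fixed the sign in most of the refits. Genes at 5 FPKM or more numbered 224.8 more in the ileum (exact permutation test, p = 0.0397), against 161.6 at 1 FPKM, which ran from 117 to 209 with 1 library left out. The share of the 10 most abundant genes was -1.86 percentage points in the ileum against the jejunum, and -1.90 for 50 genes, which did not pass (exact permutation test, p = 0.0714). With 1 library left out it ran from -2.18 to -1.34. The 17 nearly restricted genes were 18 at 0.5 and 5 FPKM, and 16 to 23 with 1 library left out. Unknown read totals limit what can be said of genes listed at 0.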

Other observations

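Some genes outside the comparison were listed in the tables of 1 segment alone, 368 in the ileum and 375 in the jejunum. In the normally fed libraries the highest value was 19.7 FPKM among the former and 1.96 FPKM among the latter, and 0 of either reached 1 FPKM in all 5 libraries of their segment.

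The direction of genes with consecutive ID numbers was set beside that of all pairs of genes. What the numbers follow is not given in the sources used here. Of 6857 pairs of tested genes with consecutive numbers, 60.1% had the same sign, beside 54.8% of all possible pairs of tested genes. Among the 61 pairs of which both members passed, 51 had the same direction, 42 toward the ileum and 9 toward the jejunum (83.6%, beside 55.5% of all possible pairs of genes that passed). At 2-fold or more in both members it was 11 of 12 pairs, beside 49.9%. Of 824 cases of a tested gene next to a gene that passed, 14.8% passed, beside 6.45% of all genes tested. In all, 115 of the 828 genes had such a neighbour, and the longest run held 3 genes. These are descriptions with no test, and the part of overlapping or near-identical genes in them was not tested.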
